A study of Mus musculus with 22 samples.

Results

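The 38 genes described here belong to glycolysis and to the transcriptional response to low oxygen, read in mouse embryonic fibroblasts (MEFs) that were passaged serially in culture. They were listed by name for their place in the pathway, with earlier results of these data known, and are 38 of the 55401 gene rows of the count table, and all 38 had enough reads to be tested in both sets of cultures. The counts come from RNA-seq of 22 libraries in 2 sets. Within the S6K1 set, 4 libraries came from wild-type (WT) MEFs at passage 3 (early WT), 4 from WT MEFs at passage 8 (late WT) and 3 from MEFs without S6K1 at passage 8 (late KO). Its counterpart, the S6K1/S6K2 set, comprised 4 early WT libraries (passage 3), 4 late WT libraries (passage 8) and 3 libraries of MEFs lacking both S6K1 and S6K2 at passage 8 (late DKO). S6K1 and S6K2, encoded by Rps6kb1 and Rps6kb2, are kinases that act downstream of mTORC1. All MEFs were made from mid-gestation embryos without head and viscera and were kept in normal air, so no culture was placed in low oxygen. WT and KO embryos were littermates, whereas DKO embryos came from intercrosses of S6K1+/-; S6K2-/- mice and their WT controls from other mothers, so that genotype and litter cannot be told apart in that set. Genotypes were compared at passage 8 only.

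Glycolysis splits glucose into pyruvate, and lactate dehydrogenase turns pyruvate into lactate when it is not burnt in mitochondria. Hypoxia-inducible factor (HIF) is a dimer of an oxygen-labile alpha subunit (HIF-1alpha or HIF-2alpha) and a stable beta subunit. In oxygen, prolyl hydroxylases mark the alpha subunit for destruction by VHL, so the protein can change with no change in its mRNA. Stabilised HIF binds short elements in promoters and enhancers and raises transcription of glucose transporters, most glycolytic enzymes, Pdk1, Vegfa and mitophagy receptors. mTORC1 is known to raise HIF-1alpha and glycolytic genes in MEFs, and replicative arrest of MEFs in normal air is a known response to oxygen stress.

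The hypoxia response element has the core ACGTG or GCGTG. That core was searched on both strands of the RefSeq promoter windows (GRCm38.p6, 250 bases before to 50 after a start site). Of the 38 genes, 34 had a window. A core lay in the first listed window of 27 of these 34 genes (79.4%), against 43.8% of the first windows of all genes, whose base composition was not matched. The windows of 5 of the genes that were lower at late passage in both sets are shown, since they are the members on which both sets gave a call. They are written 5′ to 3′ on the gene's strand, with the cores in capitals (CACGT or CACGC where the core is on the other strand). CACGTG holds a core on each strand and is also the E-box, the site of other factors.
Pdk1: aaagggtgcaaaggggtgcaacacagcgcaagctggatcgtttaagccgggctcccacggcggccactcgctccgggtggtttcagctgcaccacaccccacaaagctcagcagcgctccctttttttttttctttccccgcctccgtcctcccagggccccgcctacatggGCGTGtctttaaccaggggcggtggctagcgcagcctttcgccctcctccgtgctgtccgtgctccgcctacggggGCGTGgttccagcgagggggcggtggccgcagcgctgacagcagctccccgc
Bnip3: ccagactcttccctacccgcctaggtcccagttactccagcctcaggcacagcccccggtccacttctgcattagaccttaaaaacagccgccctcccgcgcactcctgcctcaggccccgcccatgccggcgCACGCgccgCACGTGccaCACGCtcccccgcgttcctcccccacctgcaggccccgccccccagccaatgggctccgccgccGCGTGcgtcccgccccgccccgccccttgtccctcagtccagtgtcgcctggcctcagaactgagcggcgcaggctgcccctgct
Slc16a3: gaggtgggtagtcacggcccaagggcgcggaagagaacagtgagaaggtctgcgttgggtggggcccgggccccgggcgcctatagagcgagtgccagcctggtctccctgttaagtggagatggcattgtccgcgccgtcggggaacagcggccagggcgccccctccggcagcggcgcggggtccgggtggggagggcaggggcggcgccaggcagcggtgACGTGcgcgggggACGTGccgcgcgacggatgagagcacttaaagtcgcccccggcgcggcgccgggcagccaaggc
Ddit4: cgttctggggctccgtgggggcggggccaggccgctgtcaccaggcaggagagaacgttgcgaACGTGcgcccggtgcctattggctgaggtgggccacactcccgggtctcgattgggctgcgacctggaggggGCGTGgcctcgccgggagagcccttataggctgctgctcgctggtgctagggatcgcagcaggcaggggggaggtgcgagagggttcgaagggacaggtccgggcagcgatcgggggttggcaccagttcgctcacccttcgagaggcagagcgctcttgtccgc
Hif1a: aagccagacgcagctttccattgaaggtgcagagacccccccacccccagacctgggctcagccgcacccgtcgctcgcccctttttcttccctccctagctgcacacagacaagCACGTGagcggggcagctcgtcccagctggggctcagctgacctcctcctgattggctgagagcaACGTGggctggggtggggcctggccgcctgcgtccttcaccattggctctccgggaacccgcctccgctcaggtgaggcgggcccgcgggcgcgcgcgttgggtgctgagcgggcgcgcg
The windows lie at chr2:71872974-71873273 (plus strand) for Pdk1, chr7:138909457-138909756 (minus strand) for Bnip3, chr11:120948817-120949116 (plus strand) for Slc16a3, chr10:59951721-59952020 (minus strand) for Ddit4 and chr12:73907617-73907916 (plus strand) for Hif1a. Bnip3 held 5 cores, of which a pair shared 1 CACGTG. Hif1a held 3 cores, again with 1 CACGTG, and Pdk1, Slc16a3 and Ddit4 held 2 cores each. The first window of the sixth such gene, Vegfa, held no core, and its second window held 2. No binding was measured, and a core is a match of letters, not a shown site.

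Library totals were 10742454 to 17314832 counts, at which 3 counts correspond to 0.158 to 0.298 CPM (counts scaled to library size, the usual depth-normalised read count). Against late WT libraries, Rps6kb1 was lower in KO (log2 fold change -1.67, adjusted p = 0.00744) and DKO libraries (-1.64, adjusted p = 0.000786), and Rps6kb2 in DKO libraries (-3.95, adjusted p = 0.000412), as the labels say. Fibroblast markers were high in every library (12 genes, 19621 to 41744 CPM summed), but their sum was lower in late than in early WT libraries, at 19621 to 27180 against 29582 to 36803 CPM in the S6K1 set and 21447 to 28517 against 32144 to 41744 CPM in the S6K1/S6K2 set. Much of the sum is collagen: in the S6K1 set Col1a1 was at 3087 to 6471 CPM late and 6876 to 10327.5 CPM early. The fall was not shared by all 12 genes, as 4 and 3 of them had positive fold changes in the 2 sets. Of the 12 genes, 2 and 3 were called lower at late passage by edgeR, and of 15 proliferation markers none in the S6K1 set (edgeR, 2 at an unadjusted p under 0.05, 1 by DESeq2) and 5 in the S6K1/S6K2 set. Over all genes, 5.97% and 4.89% were called lower. In the S6K1 set 3896 of 14132 genes had an unadjusted p under 0.05, and DESeq2 called 18.8%. Of 19 macrophage markers, 18 were detected and Cd163 was at 0 in every library. Their summed level was 517 to 1097 CPM in early WT, 5325 to 11087 in late WT and 3541 to 4807 in KO libraries of the S6K1 set, and 609 to 2014, 7523 to 12872 and 908 to 3383 CPM in early WT, late WT and DKO libraries of the S6K1/S6K2 set. The cultures also differed in sex: Y-linked genes were expressed in 2 of 4 early WT, 1 of 4 late WT and 3 of 3 KO libraries of the S6K1 set, and in 2 of 4, 3 of 4 and 1 of 3 libraries of the S6K1/S6K2 set. The part of these markers and of sex in the results that follow was not tested, beyond the fits with Y-linked expression as a covariate. In bulk RNA, fewer cells of a type and less RNA per cell cannot be told apart.

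At late passage, Hif1a, the lactate exporter gene Slc16a3, Pdk1 and the HIF targets Vegfa, Bnip3 and Ddit4 were lower in WT MEFs of both sets, while Epas1 was higher in both. By edgeR, no glycolytic enzyme was called in both sets, while DESeq2 called Aldoc and Tpi1 in both. The mean centred log2 CPM of the 38 genes, a description for which no test was made, was 0.15 ± 0.37 (SD, n = 4) in early WT and -0.27 ± 0.30 (SD, n = 4) in late WT MEFs of the S6K1 set. It was 0.32 ± 0.066 (SD, n = 4) and -0.045 ± 0.16 (SD, n = 4) in the S6K1/S6K2 set. Early and late libraries overlapped in the S6K1 set and did not overlap in the S6K1/S6K2 set.

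**Figure D1:**
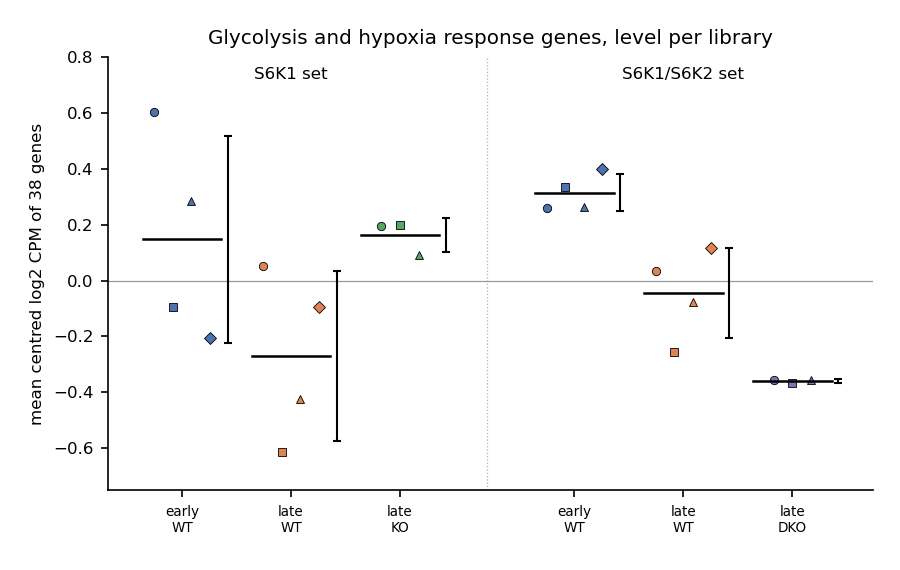
Mean over the 38 genes of log2 CPM centred per gene within a set, for each of the 22 libraries by group (circles, squares, triangles and diamonds are replicates 1 to 4, lines the group means, bars 1 SD). In the S6K1 set the 3 KO libraries lie at 0.092 to 0.20, above all 4 late WT libraries, and in the S6K1/S6K2 set the 3 DKO libraries lie at -0.37 to -0.36, below all 4 late WT libraries.

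Tests were made gene by gene (edgeR quasi-likelihood F test, Benjamini-Hochberg adjustment over all genes tested, threshold 0.05), and errors of log2 fold changes are standard errors. In late against early WT MEFs of the S6K1 set, 10 of the 38 genes were lower and 1 was higher, against 5.97% of all genes lower and 6.96% higher. Among the 38, 33 fold changes were negative, with a median log2 fold change of -0.39 (-0.038 over all genes). In the S6K1/S6K2 set, 12 of the 38 were lower and 2 were higher, against 4.89% of all genes lower and 8.28% higher, and the median was -0.37 (0.013 over all genes). All late libraries lay below all early libraries for 8 of the 38 genes in the S6K1 set (9.18% of all genes) and for 11 in the S6K1/S6K2 set (8.5%), and above them for 1 (9.19%) and 2 (11.7%). The share of mitochondrial counts was 0.704 to 0.857% in late WT libraries of the S6K1 set and 0.987 to 1.71% in all other libraries, and its part in the result was not tested. Without regard to direction, edgeR called 12.9% and 13.2% of all genes, and DESeq2 called 14 and 17 of the 38, against 18.8% and 19.8% of all genes. Left out one at a time, single libraries of the S6K1 set moved the median to between -0.53 (without late WT replicate 1) and -0.19 (without early WT replicate 1), and the count in the S6K1/S6K2 set ran from 7 (without early WT replicate 2) to 19 (without late WT replicate 4).

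Pdk1, Bnip3, Ddit4, Slc16a3, Hif1a and Vegfa were lower in both sets and Epas1 was higher in both, which is 6 of 38 and 1 of 38 genes, against 1.61% and 4.31% of the 13898 genes tested in both sets. By edgeR, calls in a single set were made for Slc2a3, Eno2, Aldoc and Egln3 (S6K1 set, lower), for Car9, Eno1, Tpi1, Ldha, Pfkl and P4ha2 (S6K1/S6K2 set, lower) and for Bnip3l (S6K1/S6K2 set, higher). None of the 38 passed the test of a difference between the sets in the passage effect (edgeR, 4 at an unadjusted p under 0.05, and 1, Eno2, by DESeq2), against 0.712% of all genes, so a call in a single set does not show that the sets differed. Of all 14886 genes, 1421 had an unadjusted p under 0.05 by edgeR in that test, and DESeq2 called 222.

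**Figure D2:**
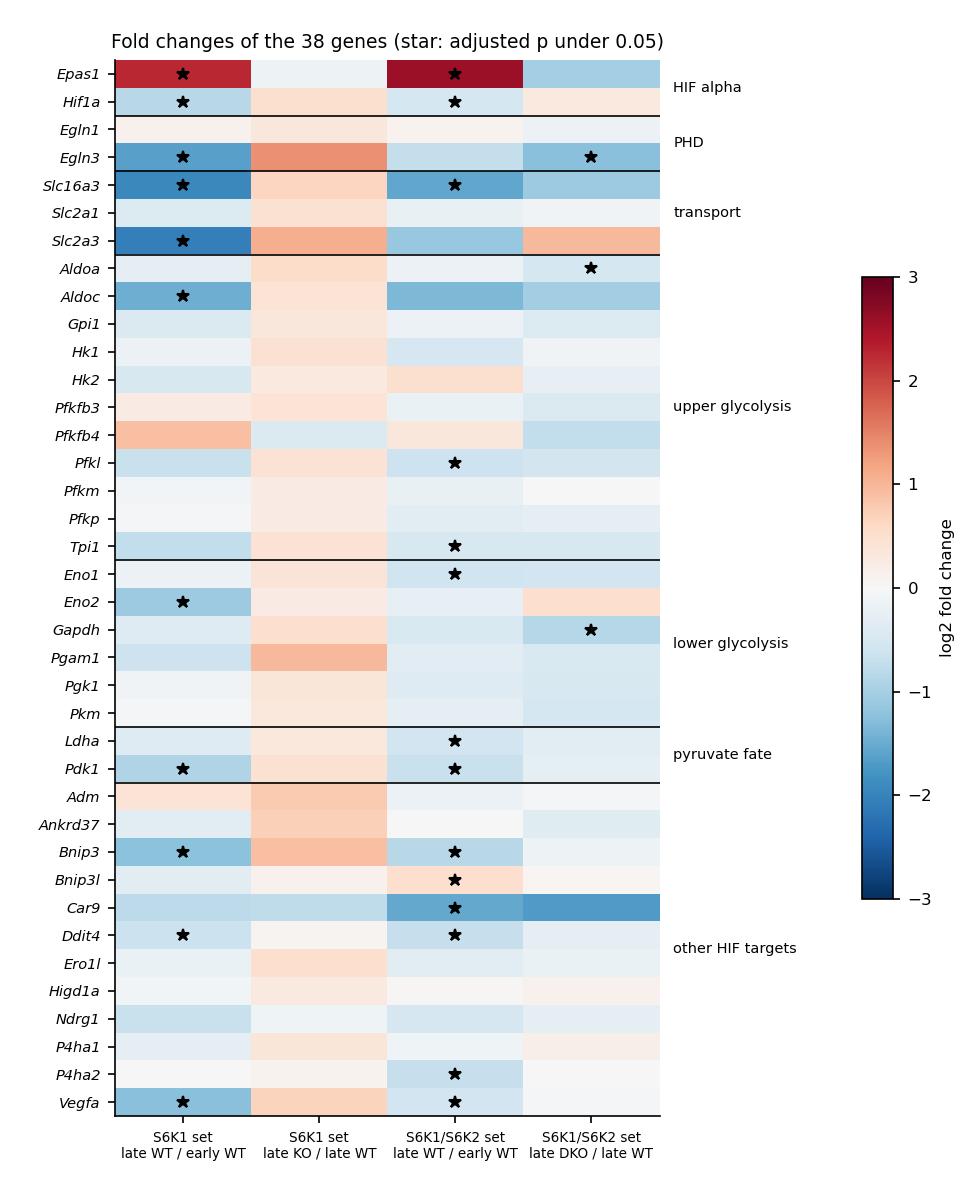
Log2 fold changes of the 38 genes (rows, by role) in the 4 comparisons (columns), with a star where the adjusted p was under 0.05. The 2 columns of late against early WT hold 11 and 14 stars, the column of KO against WT none and the column of DKO against WT 3.

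The mRNAs of the alpha subunits went opposite ways with passage. Hif1a, which encodes HIF-1alpha (chr12:73901324-73947554, GRCm38), stood at 321, 314, 292 and 333 CPM in the early WT libraries of the S6K1 set and at 157, 148, 128 and 280.2 CPM in the late WT libraries (log2 fold change -0.82 ± 0.22, adjusted p = 0.0261). All late libraries were below all early ones, although replicate 4 was close to them. The early levels of the S6K1/S6K2 set were 326, 298, 278 and 290.0 CPM and the late levels 225, 149.9, 207 and 250.7 CPM (-0.52 ± 0.14, adjusted p = 0.0329), again with no overlap. These calls were lost in 7 and 6 of the 15 alternative analyses of each set. Epas1, which encodes HIF-2alpha (chr17:86753864-86833410), was at 2.0, 1.02, 2.52 and 1.21 CPM in early and 10.7, 6.48, 8.82 and 6.97 CPM in late WT MEFs of the S6K1 set (2.26 ± 0.30, adjusted p = 0.000454). Its levels in the other set were 1.91, 1.86, 3.65 and 4.40 CPM early and 18.1, 19.5, 19.9 and 12.4 CPM late (2.57 ± 0.31, adjusted p = 0.000701). The groups did not overlap in either set, and the macrophage markers moved the same way with passage (18 of 18 higher in the S6K1 set and 17 of 18 in the S6K1/S6K2 set, median log2 fold changes 2.95 and 2.47).

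The prolyl hydroxylases are both oxygen sensors, and Egln3 is also a HIF target. Egln3 (chr12:54178981-54203874) was lower in late WT MEFs of the S6K1 set, with 17.2, 10.4, 12.5 and 9.02 CPM early and 7.34, 2.50, 2.85 and 3.32 CPM late (-1.62 ± 0.36, adjusted p = 0.012). In the S6K1/S6K2 set it stood at 10.4, 14.0, 11.8 and 14.3 CPM early and 5.17, 5.98, 9.58 and 10.1 CPM late (-0.71 ± 0.23, adjusted p = 0.0619), without overlap but short of the threshold by edgeR. DESeq2 called Egln3 in that set too. Egln1, the main sensor in most cells, did not pass the test in either set (log2 fold changes 0.13 and 0.11).

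Among the transporters, Slc16a3, which encodes the lactate exporter MCT4, was lower in both sets (chr11:120948484-120959000). It fell from 135, 74.2, 92.7 and 60.3 CPM to 37.3, 10.6, 9.21 and 37.9 CPM in the S6K1 set (-1.94 ± 0.44, adjusted p = 0.0132). The S6K1/S6K2 set gave a fall from 81.7, 83.0, 87.4 and 101 CPM to 32.1, 16.2, 26.7 and 44.3 CPM (-1.56 ± 0.27, adjusted p = 0.00401). Late libraries were below early ones throughout, and replicates 2 and 3 of the late WT libraries of the S6K1 set were the lowest. Slc2a3, the neuronal-type glucose transporter GLUT3, was at 12.7, 4.89, 6.47 and 5.12 CPM early and 3.82, 0.937, 1.06 and 1.24 CPM late in the S6K1 set (-2.06 ± 0.47, adjusted p = 0.014). In the other set its 4 late libraries spread from 0.663 to 6.04 CPM and overlapped the early ones (-1.13 ± 0.58, adjusted p = 0.208). Slc2a1, the common glucose transporter GLUT1, stood at 182, 124, 130.5 and 120.0 CPM early and 154, 71.97, 79.9 and 116 CPM late in the S6K1 set (-0.40 ± 0.23, adjusted p = 0.287). Its levels were 110.4, 129.9, 183 and 193 CPM early and 136, 103, 151 and 134 CPM late in the S6K1/S6K2 set (-0.23 ± 0.19, adjusted p = 0.427), so that GLUT1 mRNA was within the spread between libraries in both.

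**Figure D3:**
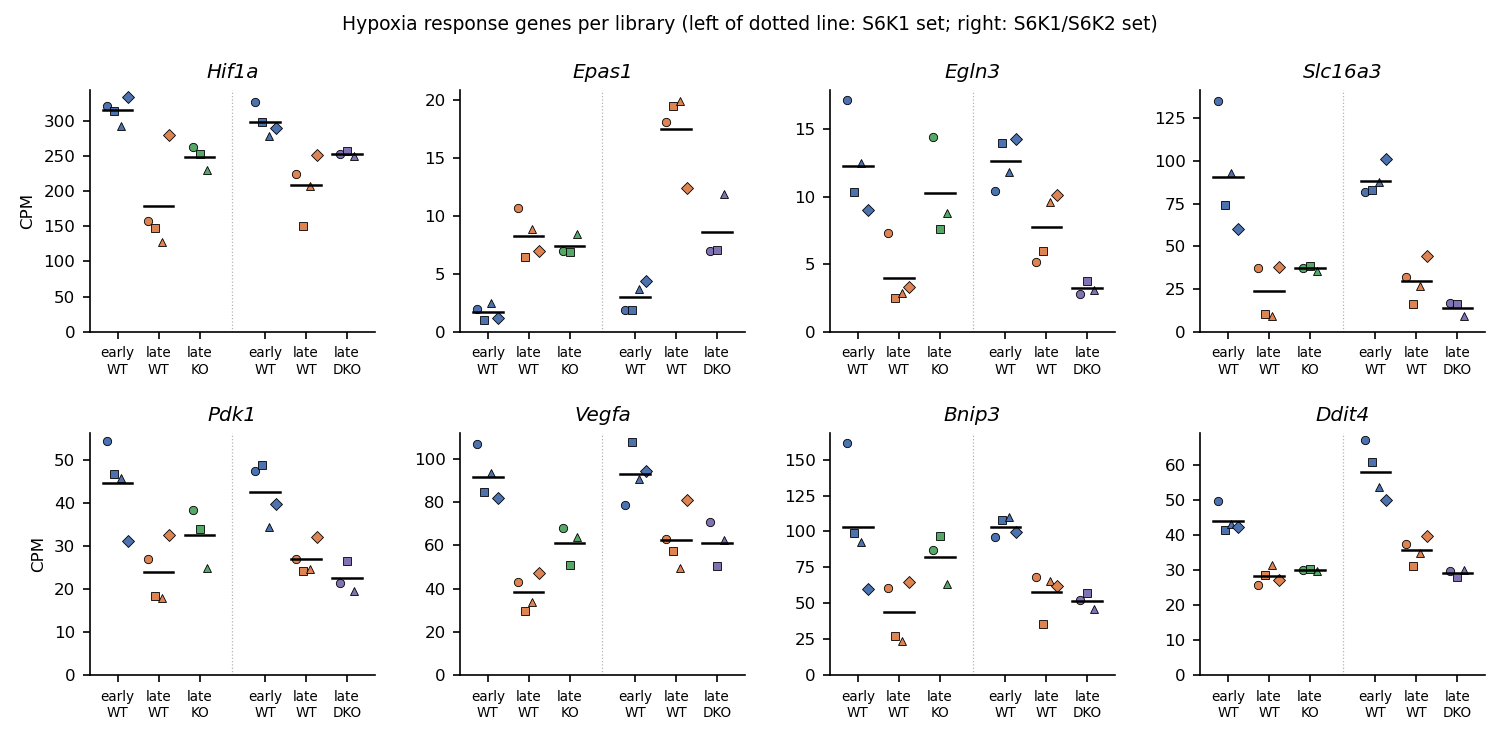
CPM per library of 8 hypoxia response genes (linear axes from 0), by group, with the S6K1 set left and the S6K1/S6K2 set right of the dotted line in each panel (symbols are replicates 1 to 4, lines group means). Late WT libraries lie below early WT libraries for Hif1a, Slc16a3 and Ddit4 in both sets, and above them for Epas1.

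Upper glycolysis, from hexokinase to triose phosphate isomerase, gave 1 lower gene of 11 in the S6K1 set and 2 of 11 in the S6K1/S6K2 set by edgeR. Over all genes, 5.97% and 4.89% were lower. Aldoc, a minor aldolase in fibroblasts, was at 3.58, 4.01, 4.01 and 1.30 CPM early and 1.15, 0.937, 1.17 and 1.41 CPM late in the S6K1 set (-1.47 ± 0.36, adjusted p = 0.0202, lost in 4 of 15 alternative analyses), with early replicate 4 inside the late range. Pfkl, the liver-type phosphofructokinase, was at 161, 174, 148 and 199.6 CPM early and 104, 82.2, 108 and 153 CPM late in the S6K1/S6K2 set (-0.61 ± 0.17, adjusted p = 0.0363). Tpi1, triose phosphate isomerase, was at 661, 732, 686 and 797 CPM early and 472, 419, 552 and 609 CPM late in that set (-0.49 ± 0.15, adjusted p = 0.0467). These 2 calls were lost in 8 and 10 of the 15 alternative analyses. Hk2, the hexokinase most often tied to HIF, was at 70.8, 75.3, 56.8 and 124 CPM early and 89.0, 39.3, 39.0 and 65.5 CPM late in the S6K1 set (-0.49 ± 0.31, adjusted p = 0.338). It was at 33.1, 34.7, 58.6 and 84.5 CPM early and 61.5, 55.9, 97.0 and 79.8 CPM late in the S6K1/S6K2 set (0.48 ± 0.29, adjusted p = 0.288), so its sign differed between the sets with neither change past the test. Pfkfb3, which makes the activator of phosphofructokinase, was at 17.9, 7.95, 13.0 and 6.94 CPM early and 14.1, 11.2, 17.3 and 12.1 CPM late in the S6K1 set (0.25 ± 0.27, adjusted p = 0.6). Its levels in the other set were 12.7, 17.3, 15.9 and 15.6 CPM early and 15.3, 13.1, 8.22 and 17.1 CPM late (-0.19 ± 0.23, adjusted p = 0.605). Pfkfb4, another isoform, had log2 fold changes of 0.91 ± 0.30 (adjusted p = 0.0691, called by DESeq2) in the S6K1 set and 0.34 ± 0.25 (adjusted p = 0.39) in the S6K1/S6K2 set. Gpi1, Aldoa, Hk1, Pfkm and Pfkp ranged from -0.44 (Gpi1) to -0.03 (Pfkp) in the S6K1 set and from -0.50 (Hk1) to -0.16 (Aldoa) in the S6K1/S6K2 set on the log2 scale, none past the test.

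Lower glycolysis, from Gapdh to pyruvate kinase, gave 1 lower gene of 6 in each set by edgeR, on a different enolase, against 5.97% and 4.89% of all genes. Eno2, the neuronal enolase, was at 40.2, 45.1, 38.03 and 46.2 CPM early and 25.1, 16.4, 20.05 and 17.6 CPM late in the S6K1 set (-1.10 ± 0.17, adjusted p = 0.0012), without overlap. Eno1, the ubiquitous enolase, was at 849, 798, 816 and 1024 CPM early and 541, 459, 506 and 801 CPM late in the S6K1/S6K2 set (-0.60 ± 0.17, adjusted p = 0.0408), a call lost in 9 of 15 alternative analyses. Gapdh was at 703, 665, 713 and 799 CPM early and 542, 502, 403 and 642 CPM late in that set, all late libraries below the early ones. It did not pass the edgeR test (-0.46 ± 0.15, adjusted p = 0.0559) but was called by DESeq2. Pgk1, Pgam1 and Pkm, which make and use the last phosphorylated intermediates, had log2 fold changes of -0.11, -0.62 and -0.07 in the S6K1 set and -0.39, -0.35 and -0.28 in the S6K1/S6K2 set, and none was called. Reads of Gapdh, Pgk1, Pgam1, Eno1, Aldoa, Tpi1, Ldha and Pkm can be shared with processed pseudogenes, so their counts are uncertain, and the counts of Pkm do not separate its M1 and M2 isoforms.

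The early WT libraries of the S6K1 set were unlike each other in these enzymes. Gapdh was at 921, 308, 792 and 224 CPM, Eno1 at 1121, 406, 892 and 290.1 CPM and Pgk1 at 229.7, 107, 201 and 65.8 CPM in replicates 1 to 4. Replicates 1 and 3 were thus high and replicates 2 and 4 low for each of these genes, and the late WT libraries (307 to 538 CPM for Gapdh) lay below the former and above replicate 4. Y-linked genes were expressed in replicates 1 and 3 (202 and 237 CPM summed) and not in replicates 2 and 4 (0.146 and 0.867 CPM). In the S6K1/S6K2 set the early replicates 2 and 3 expressed Y-linked genes (259 and 255 CPM) and 1 and 4 did not (0 CPM). For neither Gapdh nor Eno1 were both replicates 2 and 3 above replicates 1 and 4 there. The part of sex in these levels was not tested. With Y-linked expression as a covariate, 12 of the 38 genes passed the test in late against early WT MEFs of the S6K1 set, and 3265 of all 14132 genes did so, against 11 and 1827 without it.

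**Figure D4:**
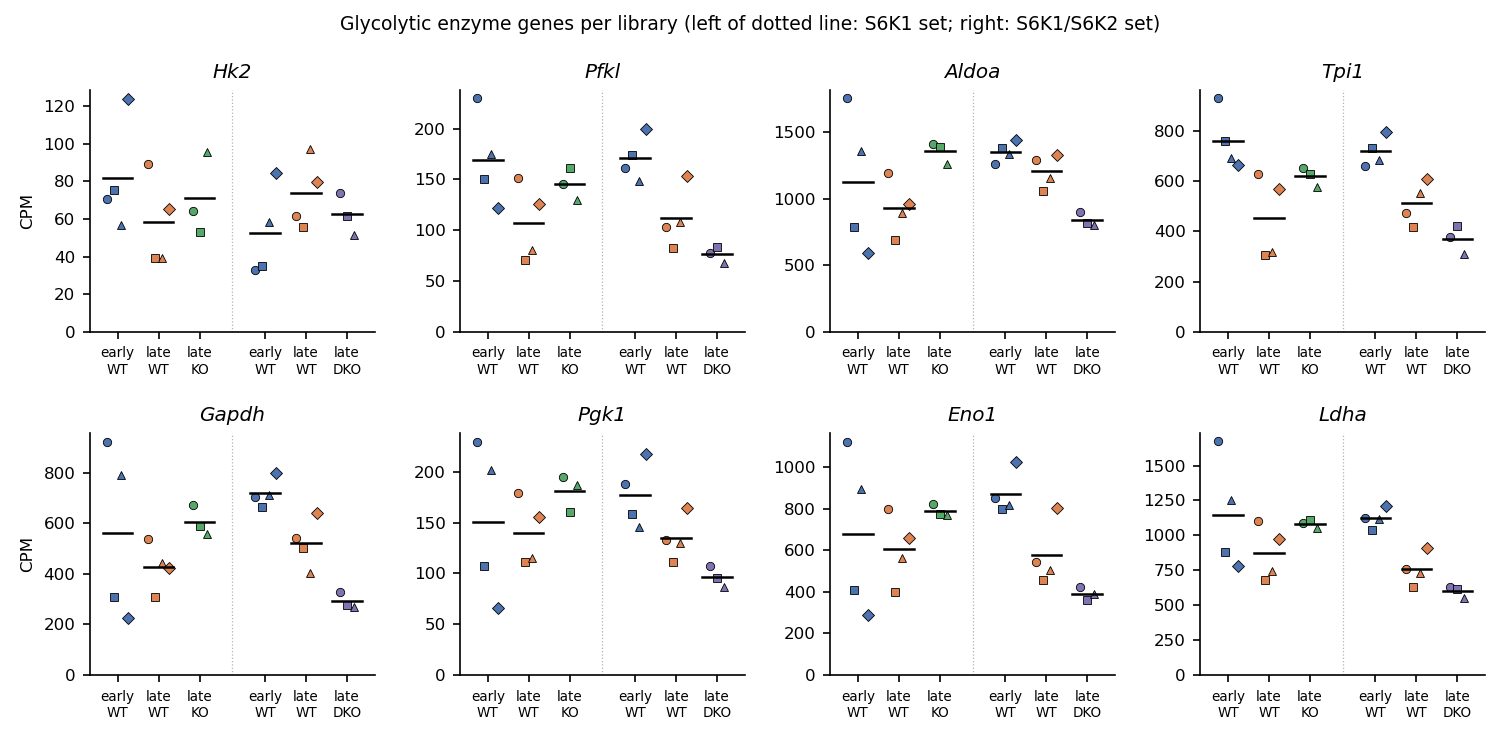
CPM per library of 8 genes of glycolysis and lactate formation (linear axes from 0), by group, with the S6K1 set left and the S6K1/S6K2 set right of the dotted line in each panel (symbols are replicates 1 to 4, lines group means). Early WT replicates 1 and 3 of the S6K1 set lie above replicates 2 and 4 for Aldoa, Gapdh, Pgk1, Eno1 and Ldha, and the DKO libraries lie below all late WT libraries for Aldoa, Gapdh, Pgk1 and Eno1.

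The fate of pyruvate is set by Ldha, which makes lactate, and Pdk1, a kinase that shuts pyruvate dehydrogenase. Pdk1 (chr2:71873215-71903858) was at 54.4, 46.8, 45.8 and 31.2 CPM early and 26.9, 18.3, 17.8 and 32.5 CPM late in the S6K1 set (-0.90 ± 0.23, adjusted p = 0.0252, lost in 6 of 15 alternative analyses). Its S6K1/S6K2 set levels were 47.5, 49.0, 34.5 and 39.8 CPM early and 26.9, 24.3, 24.7 and 32.0 CPM late (-0.66 ± 0.15, adjusted p = 0.0135). The groups overlapped by 1 library in the former and not in the latter. Ldha was at 1124, 1042, 1119 and 1213 CPM early and 756, 629, 730.2 and 908 CPM late in the S6K1/S6K2 set (-0.57 ± 0.13, adjusted p = 0.0157). In the S6K1 set it stood at 1675, 883, 1252 and 784 CPM early and 1104, 678, 742 and 974 CPM late, which overlapped (-0.39 ± 0.25, adjusted p = 0.325).

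Of the 12 other HIF targets, 3 were lower in the S6K1 set (5.97% of all genes). In the S6K1/S6K2 set, 5 were lower (4.89%) and 1 was higher (8.28%). Vegfa, the angiogenic growth factor (chr17:46016993-46032377), was at 107, 84.6, 93.3 and 82.0 CPM early and 43.0, 29.5, 33.6 and 47.3 CPM late in the S6K1 set (-1.26 ± 0.17, adjusted p = 0.000602). Its S6K1/S6K2 set levels were 78.5, 108, 90.8 and 94.5 CPM early and 62.7, 57.2, 49.3 and 80.8 CPM late (-0.57 ± 0.16, adjusted p = 0.0389, lost in 6 of 15 alternative analyses). Only in the former did the groups not overlap, and the difference between the sets was not past its test (0.65 ± 0.24, adjusted p = 0.339). Ddit4 (REDD1, chr10:59949675-59951770), an inhibitor of mTORC1 that low oxygen and other stresses induce, was at 49.6, 41.4, 43.1 and 42.2 CPM early and 25.8, 28.6, 31.4 and 27.2 CPM late in the S6K1 set (-0.64 ± 0.12, adjusted p = 0.00379). Its levels were 67.0, 60.9, 53.6 and 49.96 CPM early and 37.3, 31.0, 34.9 and 39.7 CPM late in the other (-0.70 ± 0.12, adjusted p = 0.00324). The sets gave nearly the same change, and its call held in all 15 alternative analyses of each set.

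The mitophagy receptors Bnip3 and Bnip3l differed. Bnip3 (chr7:138890836-138909506) was at 162, 98.7, 92.3 and 60.0 CPM early and 60.5, 27.1, 24.0 and 64.6 CPM late in the S6K1 set (-1.23 ± 0.36, adjusted p = 0.0436, lost in 9 of 15 alternative analyses). In the S6K1/S6K2 set it was at 95.8, 108, 110.3 and 99.5 CPM early and 68.3, 35.6, 65.3 and 62.2 CPM late (-0.84 ± 0.18, adjusted p = 0.00983), without overlap. Bnip3l (NIX) was higher at late passage in that set, with 104, 106, 116 and 106 CPM early and 141, 157, 177 and 138 CPM late (0.51 ± 0.13, adjusted p = 0.0216, lost in 5 of 15 alternative analyses). In the S6K1 set Bnip3l gave -0.31 ± 0.24 (adjusted p = 0.432), with early WT levels of 102 to 222 CPM around late levels of 114 to 137 CPM.

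P4ha2, a subunit of collagen prolyl hydroxylase, was at 136, 139.6, 141 and 190.4 CPM early and 103, 87.5, 78.2 and 108 CPM late in the S6K1/S6K2 set (-0.69 ± 0.16, adjusted p = 0.0168), and at -0.01 ± 0.26 in the S6K1 set (adjusted p = 0.993). Car9, a carbonic anhydrase that strong hypoxia induces, was covered by 3 to 65 counts a library. Its levels were 3.08, 4.02, 3.20 and 1.33 CPM early and 1.18, 1.07, 1.06 and 0.663 CPM late in the S6K1/S6K2 set (-1.55 ± 0.39, adjusted p = 0.0226, lost in 4 of 15 alternative analyses) and 2.26, 1.75, 1.37 and 1.04 CPM early and 0.917, 0.781, 1.06 and 0.996 CPM late in the S6K1 set (-0.78 ± 0.42, adjusted p = 0.258). Adm, Ankrd37, Higd1a, Ndrg1, P4ha1 and Ero1l did not pass the edgeR test in either set, with log2 fold changes from -0.67 (Ndrg1) to 0.40 (Adm), both in the S6K1 set. DESeq2 called Ndrg1 in the S6K1 set.

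At passage 8, 34 of the 38 genes had a higher fitted level in S6K1 KO than in WT MEFs, and the median of the fold changes was 0.40 on the log2 scale (-0.010 over all genes), but none passed the test (edgeR). At an unadjusted p under 0.05, 7 of the 38 were higher and none lower, and DESeq2 called 1, Egln3. Over all genes, 0.0425% were called by edgeR (0.00708% higher, 0.0354% lower) and 1.92% by DESeq2, while 1499 of 14132 genes had an unadjusted p under 0.05. All 3 KO libraries lay above all 4 late WT libraries for 8 genes (6.97% of all genes did so) and below them for none (6.28%). The 18 macrophage markers all had a negative sign in KO MEFs (median -0.87, none called by edgeR, 13 at an unadjusted p under 0.05, 5 called by DESeq2). The 15 proliferation markers were negative too (median -0.34, none called by edgeR or DESeq2, 2 at an unadjusted p under 0.05), and the mitochondrial share was 1.16 to 1.40% in KO against 0.704 to 0.857% in late WT libraries. The part of these in the result was not tested. The 3 KO libraries all expressed Y-linked genes and 1 of 4 late WT libraries did. With Y-linked expression as a covariate the median was 0.25. Leaving out 1 library in turn gave medians of 0.29 (without late WT replicate 2) to 0.49 (without late WT replicate 1).

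The largest differences in KO MEFs were those of Egln3, Slc2a3 and Pgam1. Egln3 was at 14.4, 7.57 and 8.82 CPM in KO against 7.34, 2.50, 2.85 and 3.32 CPM in late WT MEFs (1.36 ± 0.38, adjusted p = 0.234), and every KO library was above every late WT library. Slc2a3 was at 3.5, 4.69 and 3.11 CPM in KO MEFs (1.10 ± 0.50, adjusted p = 0.464), with late WT replicate 1 at 3.82 CPM inside that range. Pgam1, phosphoglycerate mutase, was at 32.2, 24.5 and 17.7 CPM, above the 9.06 to 15.2 CPM of late WT MEFs (0.98 ± 0.50, adjusted p = 0.531). Of these, Egln3 and Pgam1 did not overlap late WT MEFs, and neither passed the test. Vegfa was at 68.2, 50.9 and 63.9 CPM in KO MEFs, above the 29.5 to 47.3 CPM of late WT MEFs (0.67 ± 0.18, adjusted p = 0.234). Bnip3 was at 87.3, 96.7 and 63.1 CPM in KO MEFs, with late WT replicate 4 at 64.6 CPM (0.90 ± 0.38, adjusted p = 0.435). Hif1a was at 263, 253 and 230.2 CPM (0.48 ± 0.23, adjusted p = 0.488), above 3 late WT libraries and below replicate 4. The KO means lay between the late and early WT means for Hif1a, Vegfa and Bnip3, but the late WT libraries serve in both comparisons, so that the signs of the passage and KO changes are not independent.

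Pdk1, Ldha and Slc2a1 had positive values in KO MEFs. Pdk1 was at 38.4, 34.0 and 25.0 CPM (0.45 ± 0.25, adjusted p = 0.575). Ldha was at 1088, 1111 and 1049.5 CPM (0.31 ± 0.26, adjusted p = 0.733), and Slc2a1 at 149, 128 and 159 CPM (0.46 ± 0.25, adjusted p = 0.554). All of these overlapped the late WT range. Hk2 was at 64.1, 53.2 and 95.4 CPM (0.28 ± 0.34, adjusted p = 0.806) and Pfkfb3 at 20.5, 17.5 and 16.7 CPM (0.41 ± 0.29, adjusted p = 0.668). Car9 was at 0.206, 0.901 and 0.519 CPM, or 3 to 15 counts, and was among the 4 genes with a negative sign (-0.77 ± 0.49, adjusted p = 0.622). The others were Pfkfb4, Epas1 (-0.15 ± 0.30, adjusted p = 0.889) and Ndrg1. Ddit4 was at 30.1, 30.3 and 29.8 CPM in KO MEFs, against 25.8 to 31.4 CPM in late WT MEFs (0.09 ± 0.13, adjusted p = 0.847). Aldoc, P4ha2 and Slc16a3 share chromosome 11 with Rps6kb1, and none was called.

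S6K1/S6K2 DKO MEFs had lower fitted levels than late WT MEFs for 31 of the 38 genes, the median being -0.28 on the log2 scale (-0.0055 over all genes). Of the 38, 3 were lower and none was higher (edgeR, 1 of 38 positive at an unadjusted p under 0.05 and 15 negative), against 4.78% of all genes called, 3.95% lower and 0.821% higher. An unadjusted p under 0.05 was reached by 2643 of all 14365 genes. DESeq2 called 9, against 8.4% of all genes in either direction. Of these, Eno2 was higher and 8 were lower, namely Gapdh, Aldoa, Egln3, Eno1, Pkm, Gpi1, Slc16a3 and Epas1. All DKO libraries were below all late WT libraries for 11 genes (10.6% of all genes) and above them for 1, Eno2 (5.73%). Proliferation markers were lower too (11 of 15 called, median -0.91), as were macrophage markers (17 of 18, median -2.45), and the part of either in the result was not tested. Y-linked genes were expressed in 1 of 3 DKO and 3 of 4 late WT libraries. The part of sex was not tested, beyond the fit with Y-linked expression as a covariate.

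Gapdh (chr6:125161852-125166467) was the lower glycolysis gene called in DKO MEFs, at 327, 277 and 268 CPM against 542, 502, 403 and 642 CPM in late WT MEFs (-0.84 ± 0.16, adjusted p = 0.0139). Aldoa, the main aldolase (chr7:126795234-126800994), was at 899, 818 and 803 CPM against 1289, 1058, 1156 and 1326 CPM (-0.52 ± 0.13, adjusted p = 0.0442). Egln3 was at 2.82, 3.77 and 3.09 CPM against 5.17, 5.98, 9.58 and 10.1 CPM (-1.26 ± 0.27, adjusted p = 0.0219). DKO and late WT libraries did not overlap for any of the 3 genes, but these groups hold only 7 libraries. The early WT libraries also enter the estimate of the spread, and a fit on the 2 groups alone called 1 member. The count of members called was 0 without DKO replicate 2 or without DKO replicate 3. It was 1 without DKO replicate 1 or late WT replicate 3. Over all genes the calls were 97 without DKO replicate 2, 157 without DKO replicate 3, 686 without DKO replicate 1 and 456 without late WT replicate 3, against 686 with all libraries. Over 14 alternative analyses, the call was lost in 3 for Gapdh, 6 for Egln3 and 11 for Aldoa. Eno1, Pgk1, Pkm and Gpi1 also had every DKO library below every late WT library and did not pass the edgeR test (log2 fold changes -0.56, -0.49, -0.53 and -0.41, adjusted p from 0.0766 for Pkm to 0.136 for Pgk1). DESeq2 called Eno1, Pkm and Gpi1.

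The hypoxia genes outside glycolysis gave mixed values in DKO MEFs. Slc16a3 was at 16.8, 16.4 and 9.09 CPM, with late WT replicate 2 at 16.2 CPM inside that range (-1.09 ± 0.30, adjusted p = 0.0666). Epas1 was at 6.93, 7.04 and 11.9 CPM, below all late WT libraries and above all early ones (-1.01 ± 0.32, adjusted p = 0.106). Hif1a was at 252, 257 and 249 CPM, close to late WT replicate 4 at 250.7 CPM (0.28 ± 0.15, adjusted p = 0.362). Vegfa was at 70.8, 50.5 and 62.5 CPM (-0.03 ± 0.18, adjusted p = 0.956) and Bnip3 at 52.5, 57.1 and 45.9 CPM (-0.16 ± 0.19, adjusted p = 0.726), both inside the late WT range. Car9 was at 0.428, 0.298 and 0.189 CPM, which is 3 to 5 counts (-1.71 ± 0.51, adjusted p = 0.0856). Ldha was at 633, 619 and 548 CPM (-0.33 ± 0.14, adjusted p = 0.24) and Pdk1 at 21.5, 26.6 and 19.6 CPM (-0.26 ± 0.16, adjusted p = 0.439). Slc2a1 was at 113, 144 and 108 CPM (-0.11 ± 0.20, adjusted p = 0.839), Hk2 at 73.9, 61.8 and 51.7 CPM (-0.24 ± 0.32, adjusted p = 0.758) and Pfkfb3 at 9.41, 7.34 and 13.2 CPM (-0.42 ± 0.26, adjusted p = 0.425). Slc2a3 had the highest positive value, at 2.40, 6.15 and 9.09 CPM (0.98 ± 0.62, adjusted p = 0.451), and its DKO libraries overlapped the late WT ones.

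Loss of S6K1 alone and of both kinases thus went with opposite signs of most members, each against the late WT MEFs of its own set. For 27 of the 38 genes the fold change was positive in KO and negative in DKO MEFs, against 22.3% of all 13898 genes, and the sets share no library. The 7 genes positive in both included Slc2a3, Eno2 and Hif1a, and the 4 negative in both were Car9, Pfkfb4, Epas1 and Ndrg1. The difference between the genotype effects (DKO minus KO) was negative for 37 of the 38 genes, with a median of -0.69 on the log2 scale (-0.0078 over all genes). None passed the test of that difference (edgeR, 15 at an unadjusted p under 0.05, all negative, and 1, Egln3, by DESeq2), and over all genes edgeR called 1 of 14886, or 0.00672%. Of these 14886 genes, 1626 had an unadjusted p under 0.05 by edgeR, and DESeq2 called 65. Egln3 had the largest difference (-2.604 ± 0.49, adjusted p = 0.148), from 1.36 in KO to -1.26 in DKO MEFs. The values of Gapdh were 0.50 and -0.84 (difference -1.33 ± 0.47, adjusted p = 0.331) and those of Slc16a3 0.65 and -1.09 (-1.72 ± 0.59, adjusted p = 0.328). The sets also differ in breeding and in culture, which cannot be told apart from the loss of S6K2. Sex differed in opposite directions in the 2 genotype comparisons. Y-linked genes were expressed in 3 of 3 KO against 1 of 4 late WT libraries, and in 1 of 3 DKO against 3 of 4 late WT libraries. Their median log2 fold changes were 1.81 and -1.59. The part of sex in the opposite signs was not tested, beyond the fits with Y-linked expression as a covariate.

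**Figure D5:**
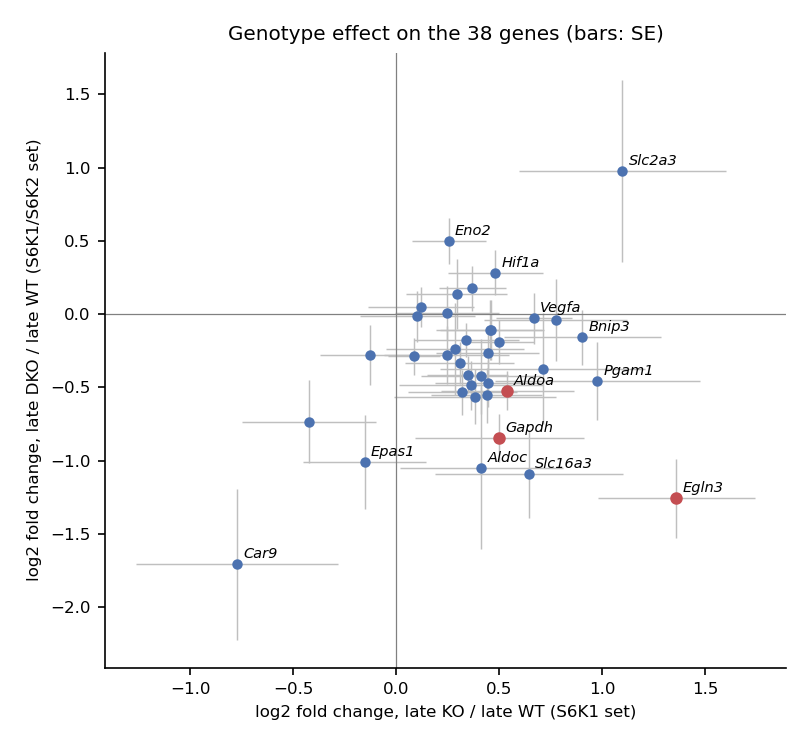
Log2 fold change of the 38 genes in KO against late WT MEFs of the S6K1 set (x axis) and in DKO against late WT MEFs of the S6K1/S6K2 set (y axis), with bars of 1 SE and red points for the 3 genes called in DKO MEFs. Most points, 27 of 38, lie in the lower right quadrant.

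Other genes of the pathway were called in both directions. Of 34 other HIF target genes tested, 11 were lower (5.97% of all genes) and 3 higher (6.96%) at late passage in the S6K1 set. In the S6K1/S6K2 set, 5 were lower (4.89%) and 5 higher (8.28%). Angptl4, a lipase inhibitor, was lower in both (-1.99 ± 0.38, adjusted p = 0.00472, and -2.28 ± 0.60, adjusted p = 0.0303), as were Stc2 (-1.70 and -1.83) and the carbonic anhydrase Car12 (-1.68 and -1.80). Cxcr4, a chemokine receptor that macrophages also express, was higher in both (4.61 and 3.95) and lower in DKO than in late WT MEFs (-2.15 ± 0.43, adjusted p = 0.0174). Bhlhe40 and Ppp1r3c were the 2 of these genes that passed the test of a difference between the sets in the passage effect (1.54 ± 0.32, adjusted p = 0.0219, and -2.71 ± 0.57, adjusted p = 0.0217). Bhlhe40 was lower at late passage in the S6K1 set (-1.40 ± 0.22, adjusted p = 0.0013), where Ppp1r3c, a glycogen-targeting subunit of protein phosphatase, was higher (3.42 ± 0.50, adjusted p = 0.000914). Pgf, a relative of Vegfa, was lower at late passage in the S6K1 set (-1.65 ± 0.42, adjusted p = 0.0234), and Bhlhe41 and Rora were higher in the S6K1/S6K2 set (1.74 ± 0.23, adjusted p = 0.00098, and 1.01 ± 0.18, adjusted p = 0.00442). In DKO against late WT MEFs, 2 of the 34 were lower, Cxcr4 and Bhlhe41 (-1.02 ± 0.25, adjusted p = 0.0378), and 2 were higher, Rora (0.79 ± 0.19, adjusted p = 0.0358) and Ppp1r3c (1.37 ± 0.25, adjusted p = 0.0125). Over all genes, 3.95% were lower and 0.821% higher in that comparison.

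Among 13 other glycolysis genes, 1 was higher and 1 lower at late passage in the S6K1 set (6.96% and 5.97% of all genes). In the S6K1/S6K2 set, 2 were higher and 4 lower (8.28% and 4.89%). Slc16a1 (MCT1), the partner of MCT4 in lactate transport, was lower in both (-1.15 ± 0.26, adjusted p = 0.0118, and -1.20 ± 0.16, adjusted p = 0.000902), and Pfkfb1 was lower in the S6K1/S6K2 set (-1.23 ± 0.31, adjusted p = 0.0216). Hk3, a hexokinase of myeloid cells, was higher in both (2.44 and 2.14) and lower in DKO MEFs (-2.62 ± 0.53, adjusted p = 0.0185), as the macrophage markers were. Of the 16 genes of the tricarboxylic acid cycle, edgeR called Sdhc alone, higher at late passage in the S6K1 set (0.55 ± 0.15, adjusted p = 0.0311, 6.96% of all genes). For passage, DESeq2 called Sdha and Sdhc in that set and Dlst and Ogdh in the S6K1/S6K2 set (18.8% and 19.8% of all genes). Of the 12 genes of pyruvate dehydrogenase and pyruvate entry, both methods called Pdk3 alone, lower at late passage in the S6K1/S6K2 set (edgeR, -0.57 ± 0.14, adjusted p = 0.018, 4.89% of all genes). In the pentose phosphate pathway (7 genes), edgeR called Rpia (0.58) and Taldo1 (0.61) higher at late passage in the S6K1/S6K2 set (8.28% of all genes). It called G6pdx lower in DKO MEFs (-0.87 ± 0.18, adjusted p = 0.0169, 3.95% of all genes). There DESeq2 called G6pdx, Pgd, Rpia, Taldo1 and Tkt (8.4% of all genes). All DKO libraries were below all late WT libraries for 4 of the 7 genes (10.6%) and above them for 1 (5.73%). With passage, DESeq2 called Pgd and Taldo1 in the S6K1 set (18.8%) and Rpia and Taldo1 in the other (19.8%). Of 14 HIF regulators, edgeR called Cited2, which competes with HIF for p300, higher at late passage in the S6K1/S6K2 set (1.01 ± 0.17, adjusted p = 0.00274, 8.28% of all genes). DESeq2 called Cited2 and Vhl in that comparison (19.8% of all genes) and Arnt2 in DKO against late WT MEFs (8.4%). Sdhc, Sdha, Dlst, Ogdh, Pdk3, Rpia, Taldo1, Pgd, Tkt, G6pdx, Vhl and Arnt2 were named after their values were seen. In KO against late WT MEFs edgeR called none of these genes (at an unadjusted p under 0.05, 8 of the 34 other HIF targets, 2 of the 13 glycolysis genes and 1 of the 12 genes of pyruvate dehydrogenase), and those that DESeq2 called included Cxcr4, Plod2 and Hk3. Over all genes, 1499 of 14132 had an unadjusted p under 0.05 there, and DESeq2 called 1.92%.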

How the data were processed

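RNA-seq of 22 MEF libraries in 6 groups was used, 3 or 4 libraries a group, each as 1 replicate. The deposited values are raw read counts per gene from the authors, not normalized. The sources differ on how they were made: the paper's methods name CASAVA, TopHat, mm9 and HTSeq, while the submitters' processing notes name CASAVA, STAR 2.7.1a and mm10, and of the 55401 identifiers 22812 were absent from an mm9 annotation. The strand setting of the counting is not given in the sources used here, so reads of a gene and of an antisense partner may not be told apart. Libraries were stranded mRNA, single-end.

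Symbols, positions and promoters came from tables of GRCm38.p6. The 38 members and all lists were chosen with earlier results of these data known. The tests used edgeR 4.0.16 (R 4.3.3): filterByExpr (minimum count 10), TMM, a robust quasi-likelihood F test on the 3 groups of a set (14132 and 14365 genes), two-sided, Benjamini-Hochberg adjustment over all genes tested, threshold 0.05. Differences between sets were contrasts over all 22 libraries as 6 groups (14886 genes). The code was tested on simulated data. CPM are counts over TMM-scaled library sizes of a set. The mean level of the 38 genes is that of log2 CPM (prior count 2), centred per gene over 11 libraries. Library pairs of a group differed by more than sampling noise (chi-square per degree of freedom 20.6 to 265.7 in 30 pairs). The paper states that replicates in its MEF experiments came from different embryos, but the labels do not tie these libraries to embryos, so p-values measure the spread between these libraries, which may be partly technical. The standard errors of log2 fold changes come from the quasi-likelihood fit and include the spread between these libraries.

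Members past the threshold were named in each comparison, as were Hif1a, Slc2a1, Hk2, Pfkfb3, Ldha, Pdk1, Vegfa, Bnip3 and Car9, with other pathway genes past it by at least 1 on the log2 scale. Alternatives were DESeq2 1.42.0, RLE and total count scaling, no filter, Y-linked expression as covariate, fits on 2 or 6 groups, and leaving out each library.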

Additional observations from a re-analysis of the deposited data

Results flagged for a closer look

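In groups of 4 libraries, 96 sets of values (23 named members and the mean level of the 38 genes, in 4 groups) were examined for a library that stands apart from the other 3 by Dixon's criterion, which flags about 1 in 20 by chance, and 7 were flagged. In the S6K1 set these were Aldoc in early WT replicate 4 (1.30 CPM, others 3.58 to 4.01), Slc2a1 in early WT replicate 1 (182 CPM, others 120.0 to 130.5), and Egln3 and Slc2a3 in late WT replicate 1 (7.34 CPM, others 2.50 to 3.32, and 3.82 CPM, others 0.937 to 1.24). In the S6K1/S6K2 set they were Bnip3l in early WT replicate 3 (116 CPM, others 104 to 106), P4ha2 in early WT replicate 4 (190.4 CPM, others 136 to 141) and Aldoc in late WT replicate 4 (3.18 CPM, others 0.83 to 1.14).

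The mean level of the 38 genes moved in opposite directions with genotype: each KO library was above the late WT mean, by 0.43 on average (0.36 to 0.47), and each DKO library was below its late WT mean, by -0.31 on average (-0.32 to -0.31). This difference of the mean level was not tested, and none of the 38 genes passed the gene-wise test of it by edgeR. Sex also differed in opposite directions between these comparisons, and its part in the mean level was not tested.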

How the results depend on the processing

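No paired analysis was possible because the labels give no replicate number shared between groups, and the replicate numbers here follow the order of the accessions. No called value changed sign under any alternative run. Counts of members called moved by over 1.5 times as follows. In KO against late WT MEFs DESeq2 called 1 (edgeR 0). In late against early WT MEFs of the S6K1/S6K2 set the fit of all 22 libraries called 9 (14). In DKO against late WT MEFs (3) DESeq2 called 9, the fit of 2 groups 1 and the fit of 6 groups 0. For the difference between sets, DESeq2 called 1 in the passage effect (0) and 1 in the genotype effect (0), where a fit with no filter also called 1. Leaving out 1 library gave 7 to 11 members for passage in the S6K1 set (7 without early WT replicate 2 or late WT replicate 3), 7 to 19 in the S6K1/S6K2 set (7 without early WT replicate 2, 8 without early WT replicate 1 or late WT replicates 2 or 3, 19 without late WT replicate 4, which also took the median to -0.49, range -0.49 to -0.32), 0 to 3 in DKO against late WT MEFs, 0 in KO against late WT MEFs, and 0 to 1 for the differences between sets (1 without late WT replicate 1 of the S6K1 set). The median of the S6K1 passage effect ran from -0.53 (without late WT replicate 1) to -0.19 (without early WT replicate 1). Of the calls on single genes under the alternatives, 321 were kept and 96 lost. Across all genes DESeq2 called 2655 in place of 1827, 266 in place of 6, 2845 in place of 1892 and 1206 in place of 686. Calls kept throughout were those of Slc2a3, Eno2, Ddit4, Egln3, Vegfa and Epas1 in the S6K1 set and of Pdk1, Ldha, Ddit4, P4ha2, Slc16a3 and Epas1 in the other.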
